A study of Glycine max with 12 samples.

Results

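The cluster of chalcone synthase (CHS) genes on soybean chromosome 8 was followed across tissues and stages of seed, root and leaf. Its members were the gene models numbered from Glyma.08G109200 to Glyma.08G110900 whose deposited annotation names the chalcone and stilbene synthase domain, 9 models of 56044 in the table. By the study's names they were CHS5 (Glyma.08G109200.1), CHS3 (Glyma.08G109300.1), CHS1 (Glyma.08G109400.1), CHS9 (Glyma.08G109500.1), CHS3 (Glyma.08G110300.1), CHS5 (Glyma.08G110400.1), CHS4 (Glyma.08G110500.1), CHS4 (Glyma.08G110700.1) and CHS3 (Glyma.08G110900.1). A further 6 CHS models on other chromosomes, CHS2, 3 models of CHS6, CHS7 and CHS8, were used for comparison.

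RNA-Seq was performed on 12 libraries, 1 per condition and without replicates. The cultivar Williams, which has yellow seed coats and the ii allele of the I locus, gave 11 of them: roots of greenhouse seedlings (day 5), furled trifoliate leaves of adult plants, seed coats of 5–6 mg, 25–50 mg, 200–300 mg and dry seed, axes dissected from embryos of 200–300 mg and of 300–400 mg seed, and cotyledons at 5–6 mg, at 200–300 mg and when dry. Seed of 200–400 mg was yellow and desiccating, and dry seed was mature. Seed loses weight as it dries, so the 200–300 mg desiccating axes are the later stage. The remaining library came from seed coats of 25–50 mg seed of Williams 55 (W55), a black-seeded line with the i mutation, in which most of the CHS cluster is deleted. Plants were grown in a greenhouse and seeds were dissected by hand.

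Chalcone synthase joins a phenylpropanoid CoA ester to malonyl units and so makes the chalcone from which plants build all flavonoids, among them the anthocyanins and proanthocyanidins of pigmented seed coats. In legumes a branch after chalcone synthase leads to isoflavones, which accumulate in seeds and are released by roots. At roots, flavonoids also act as signals to nodulating bacteria. In yellow-seeded soybean, an inverted repeat of CHS genes in this cluster gives rise to short interfering RNAs in the seed coat, and these lower the CHS transcripts there.

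Values are RPKM, hits on a model per kilobase of its length and scaled by the alignments of the library. Whole numbers of hits were recovered from the RPKM values, with library totals of 14.7 M to 187 M alignments. Where a ratio is given with an interval, this is an exact Clopper-Pearson 95% interval. It reflects counting error alone, as no spread between plants could be measured. A read may be a hit on several CHS copies at once, so the 9 values of a library are not independent of each other. In these bulk samples, fewer cells that express a gene and less RNA per cell cannot be told apart.

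The tissue labels were checked against marker lists. Light-harvesting and Rubisco small subunit models (53) held 8.06% of RPKM in leaves and between 0.01% and 0.91% in the other 11 libraries, after setting aside the chromosome 13 models described next. Casparian strip models (15) held 0.0146% in roots and at most 0.000445% elsewhere. Oleosin and late embryogenesis abundant models (139) held 1.70% to 5.33% in the 6 desiccating or dry seed libraries and 0.07% to 0.28% in the other 6 libraries. Storage globulin models (4) held 0.386% in cotyledons of 200–300 mg seed, 0.367% in dry cotyledons and at most 0.0106% elsewhere. Cotyledons of 5–6 mg seed had only 3.1e-05%. No list marked the seed coat, so its label was not checked in this way. Chromosome 13 models lacking both a Pfam domain and an Arabidopsis match took 75.7% of summed RPKM in seed coats and 54.0% in cotyledons at 5–6 mg, 47.6% in dry seed coats and 2.73% to 20.6% in the other 9 libraries. This share lowers the RPKM of every other model in a library. Values are therefore also given after rescaling where it turned a median difference or changed a count of 2-fold members.

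All 9 models were highest in seedling roots by a wide margin, and as deposited the seed coat of 25–50 mg seed came next for every one of them among Williams libraries. After rescaling by the median ratio the members' median was second in seed coats of 5–6 mg seed (10.4), ahead of 25–50 mg (6.75). In roots the 9 models lay between 56.9 and 137 RPKM. In the other 11 libraries the highest value of any member was 9.81 RPKM, for CHS4 Glyma.08G110500.1 in seed coats of 25–50 mg seed. Of the 40811 models that reached 1 RPKM in a Williams library, 20.8% had their highest Williams value in roots. All 6 CHS models on other chromosomes were highest in roots as well, so this peak was not particular to the cluster.

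CHS3 Glyma.08G110900.1, the highest member in roots, had 137 RPKM in roots, 4.08 in leaves and 3.45 in the W55 seed coat. In Williams seed coats it had 4.84 RPKM at 5–6 mg, 7.90 at 25–50 mg, 4.08 at 200–300 mg and 0.341 in dry seed. It had 0.664 RPKM in 200–300 mg axes, 0.459 in 300–400 mg axes, and 1.67, 0.783 and 0.635 in cotyledons of 5–6 mg, 200–300 mg and dry seed. The root value therefore stood far above all the others, and the dry seed coat was the lowest library.

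CHS4 Glyma.08G110500.1, the highest member in young seed tissue, had 117.8 RPKM in roots, 3.15 in leaves and 3.30 in the W55 seed coat. Along the 4 stages of the Williams seed coat it had 6.03, 9.81, 4.06 and 0.307 RPKM. It had 0.934 and 0.537 RPKM in axes of 200–300 mg and 300–400 mg seed, and 2.14, 0.944 and 0.686 RPKM along the 3 cotyledon stages. Here too the dry seed coat was lowest, and both axes and the later cotyledons stayed below 1 RPKM.

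CHS1 Glyma.08G109400.1, the longest model and the lowest member in 11 of the 12 libraries, had 56.9 RPKM in roots, 1.70 in leaves and 1.31 in the W55 seed coat. It had 1.61, 3.80, 1.65 and 0.193 RPKM along the seed coat stages. The axes gave 0.286 and 0.180 RPKM at 200–300 mg and 300–400 mg, and the cotyledon stages 0.727, 0.315 and 0.236 RPKM. Unlike the others it was lowest in the 300–400 mg axes, just below the dry seed coat.

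CHS9 Glyma.08G109500.1, which is not among the copies of the inverted repeat, had 104.3 RPKM in roots, 3.54 in leaves and 2.86 in the W55 seed coat. Its seed coat stages gave 3.67, 6.24, 4.35 and 0.277 RPKM, so that it was the highest of the 9 members in seed coats of 200–300 mg seed. Its axes had 0.728 and 0.425 RPKM at 200–300 mg and 300–400 mg, and its cotyledons 1.63, 0.726 and 0.616 RPKM by stage.

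The remaining 5 models followed the same course. They spanned 67.7 to 128 RPKM in roots and 2.16 to 3.81 RPKM in leaves. CHS5 Glyma.08G109200.1 had 99.95 RPKM in roots, and CHS5 Glyma.08G110400.1, a shorter model next to an assembly gap, had 124 RPKM there. CHS3 Glyma.08G109300.1, a long model, had 67.7 RPKM in roots, while CHS3 Glyma.08G110300.1 had 128 and CHS4 Glyma.08G110700.1 had 102.

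**Figure D1:**
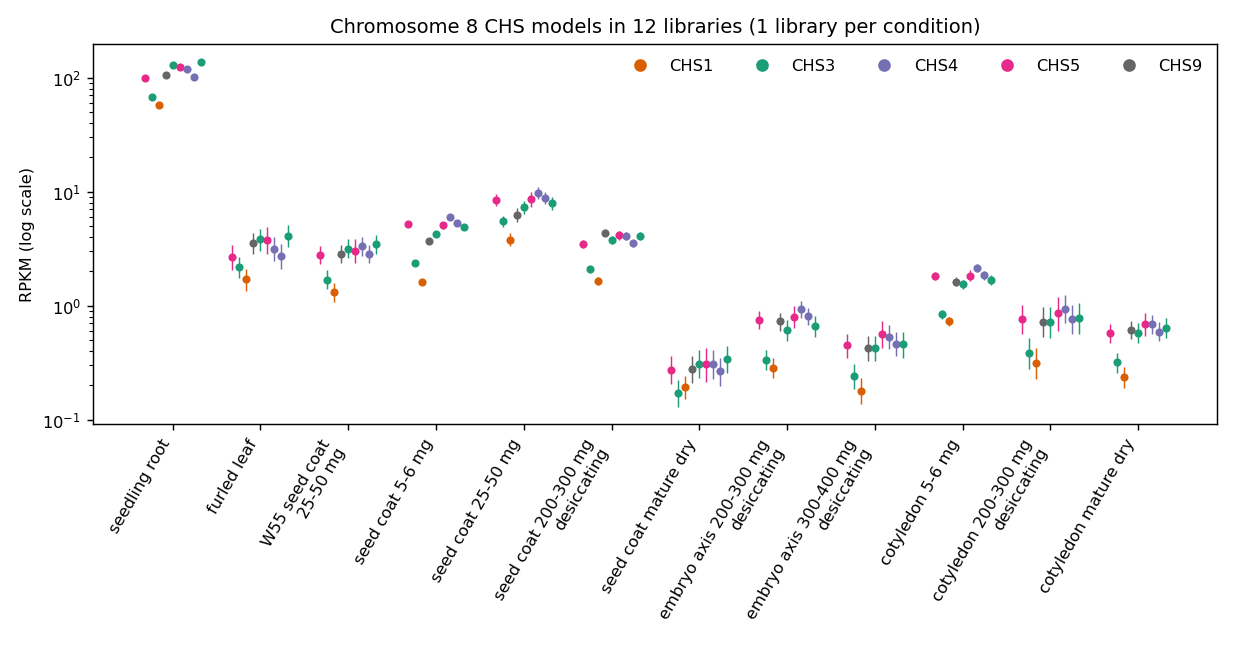
RPKM of the 9 chromosome 8 CHS models (log axis) in each of the 12 libraries, coloured by CHS name, with models in order of number from left to right within a library. Bars are exact 95% counting intervals. The root values (56.9 to 137 RPKM) stand above all others, and the dry seed coat has the lowest median (0.277 RPKM).

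Ranked by the median of the 9 members, the libraries ran from roots (104.3 RPKM) through seed coats of 25–50 mg (7.90), 5–6 mg (4.84) and 200–300 mg seed (3.78), leaves (3.15), the W55 seed coat (2.86) and cotyledons of 5–6 mg seed (1.67). Below 1 RPKM came cotyledons of 200–300 mg seed (0.767), axes of 200–300 mg seed (0.728), dry cotyledons (0.592), axes of 300–400 mg seed (0.448) and dry seed coats (0.277). For all 9 models the counting intervals of neighbours were apart between roots and seed coats of 25–50 mg seed, between these and seed coats of 5–6 mg seed, between the W55 seed coat and young cotyledons, and between young and 200–300 mg cotyledons. No model had separate intervals between 200–300 mg seed coats and leaves, leaves and the W55 seed coat, 200–300 mg cotyledons and 200–300 mg axes, these axes and dry cotyledons, or dry cotyledons and 300–400 mg axes. These orders and intervals are those of the deposited RPKM, and the W55 values are not levels of the deleted genes. Between seed coats of 5–6 mg and 200–300 mg seed, 5 models had separate intervals in the order given and 1 model in the opposite order. Between axes of 300–400 mg seed and dry seed coats 3 models did.

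Of the planned comparisons, that of seedling roots with leaves had the largest median difference. All 9 models were at least 2-fold higher in roots, against 27.6% of 35950 models, here and below those that reached 1 RPKM in at least 1 of the pair. CHS5 Glyma.08G109200.1 had 99.95 RPKM in roots, against 2.67 RPKM in leaves, a ratio of 37.5 (95% interval 29.4 to 48.5). CHS9 Glyma.08G109500.1 had 104.3 RPKM in roots, against 3.54 RPKM in leaves, a ratio of 29.5 (23.9 to 36.8), and the other 7 ratios lay between these. On the log2(RPKM + 0.1) scale used for all differences below, the median difference of the 9 models was 5.03, while the median of all models was 0.07. The leaf library was the shallowest, with 57 to 89 hits per member.

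Roots were then set against seed coats of 25–50 mg seed, the next highest Williams library. This comparison was chosen after the levels had been seen. All 9 models were at least 2-fold higher in roots, against 25.0% of 35774 models, with ratios from 11.6 to 17.6 and a median log2 difference of 3.83. CHS3 Glyma.08G110900.1 was 17.4 times higher in roots than in seed coats (15.2 to 20.0), and CHS4 Glyma.08G110500.1 was 12.0 times higher (10.7 to 13.6). The interval of the CHS3 ratio lay above that of the CHS4 ratio. The rank of roots as highest was the same after both rescalings.

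In the seed coat of Williams the models were highest in young seed and lowest in dry seed. In seed coats of 25–50 mg seed, 2 of 9 models were at least 2-fold higher than in seed coats of 5–6 mg seed, against 72.7% of 30487 models. All 9 were above their 5–6 mg value, with ratios from 1.63 to 2.36. CHS1 Glyma.08G109400.1 had 3.80 RPKM at 25–50 mg and 1.61 RPKM at 5–6 mg, a ratio of 2.36 (2.05 to 2.72). The median log2 difference of the members was 0.75, while that of all models was 1.62. After rescaling without the chromosome 13 models the members' median was 0.07, and after rescaling by the median ratio it was −0.55, so the direction between these 2 stages depended on the scaling. Under these rescalings 0 of 9 models were at least 2-fold higher, against 49.8% and 27.4% of all models.

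From 25–50 mg to 200–300 mg desiccating seed the difference had the same direction under every scaling. In seed coats of 200–300 mg seed, 6 of 9 models were at least 2-fold lower than at 25–50 mg, against 33.3% of 32846 models, and the median log2 difference was −1.16. CHS4 Glyma.08G110700.1 had 3.52 RPKM at 200–300 mg and 8.77 RPKM at 25–50 mg, a ratio of 0.401 (0.348 to 0.462). CHS9 Glyma.08G109500.1 had 4.35 RPKM at 200–300 mg and 6.24 RPKM at 25–50 mg, a ratio of 0.697 (0.598 to 0.816), so its difference was smaller than that of CHS4 beyond both intervals. The CHS3 models Glyma.08G110300.1 and Glyma.08G110900.1 had ratios of 0.520 and 0.517, and the longer CHS3 model Glyma.08G109300.1 had the lowest of the 9, at 0.379 (0.330 to 0.436). The reads were 70 nt pairs at 25–50 mg and 100 nt single reads at 200–300 mg, and the part of read length in these ratios was not tested.

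Dry seed coats were lower again. All 9 models were at least 2-fold lower in dry seed coats than at 200–300 mg, against 49.1% of 26156 models. CHS9 Glyma.08G109500.1 had 0.277 RPKM in dry seed coats and 4.35 RPKM at 200–300 mg, a ratio of 0.0638 (0.0473 to 0.0842). The other ratios reached up to 0.117, and the median log2 difference was −3.25, while that of all models was −0.97. Between 36 and 74 hits per member were counted in the dry seed coat.

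In cotyledons the members were low at all 3 stages and lower after the youngest. In cotyledons of 200–300 mg seed 6 of 9 models were at least 2-fold lower than at 5–6 mg on the log2 scale, against 35.6% of 27992 models, and 7 of the 9 had reached 1 RPKM at either stage. After either rescaling 9 of 9 were at least 2-fold lower, against 38.8% of all models without the chromosome 13 models and 39.1% by the median ratio. The RPKM ratios as deposited ran from 0.416 to 0.470, and every interval lay below 1. CHS5 Glyma.08G109200.1 had 0.768 RPKM at 200–300 mg and 1.82 RPKM at 5–6 mg, a ratio of 0.423 (0.310 to 0.565). Dry cotyledons had ratios of 0.727 to 0.848 to the 200–300 mg stage, and every interval included 1. None of the 9 was 2-fold lower, against 10.4% of 22112 models, but no member reached 1 RPKM in either library, so none is among those models.

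The embryo axes held the members at under 1 RPKM at both stages. In axes of 200–300 mg seed all 9 models were above their value in axes of 300–400 mg seed, with ratios from 1.39 to 1.74. The interval lay above 1 for 7 of 9 models. None was 2-fold higher, against 5.42% of 23328 models, among which no member is since none reached 1 RPKM. CHS4 Glyma.08G110500.1 had 0.934 RPKM at 200–300 mg and 0.537 RPKM at 300–400 mg, a ratio of 1.74 (1.29 to 2.35).

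Tissues of the same seed stage were compared next. In 5–6 mg seed all 9 models were at least 2-fold higher in seed coats than in cotyledons, against 11.8% of 25754 models. CHS3 Glyma.08G110900.1 had 4.84 RPKM in seed coats and 1.67 RPKM in cotyledons, a ratio of 2.90 (2.59 to 3.24), and the lowest ratio was 2.21, for CHS1. The members' median log2 difference was 1.42, while that of all models was −1.01. It was 1.95 without the chromosome 13 models and 2.35 by the median ratio.

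In 200–300 mg seed all 9 models were again at least 2-fold higher in seed coats, against 32.5% of 27303 models. CHS9 Glyma.08G109500.1 had 4.35 RPKM in seed coats and 0.726 RPKM in cotyledons, a ratio of 5.99 (4.46 to 8.22), and the lowest ratio was 4.30, for CHS4 Glyma.08G110500.1. Axes and cotyledons of this stage had similar values, with a median log2 difference of −0.09 that was 0.01 without the chromosome 13 models. The ratios of axes to cotyledons were 0.848 to 1.05, and every interval included 1. None of the 9 was 2-fold lower, against 8.95% of 23490 models, and again no member is among these.

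In dry seed the order of seed coat and cotyledon was the other way round. All 9 models were lower in seed coats, with ratios from 0.448 to 0.818, and the interval lay below 1 for 8 of 9 models. On the log2(RPKM + 0.1) scale 0 of 9 were 2-fold lower, against 30.1% of 21341 models, and no member reached 1 RPKM in either library. CHS4 Glyma.08G110500.1 had 0.307 RPKM in seed coats and 0.686 RPKM in cotyledons, a ratio of 0.448 (0.314 to 0.631). Rescaled without the chromosome 13 models, 2 of 9 were at least 2-fold lower, against 28.2% of all models. After rescaling by the median ratio the members' log2 differences ran from −0.53 to 0.16, so at least 1 member was then higher in dry seed coats.

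**Figure D2:**
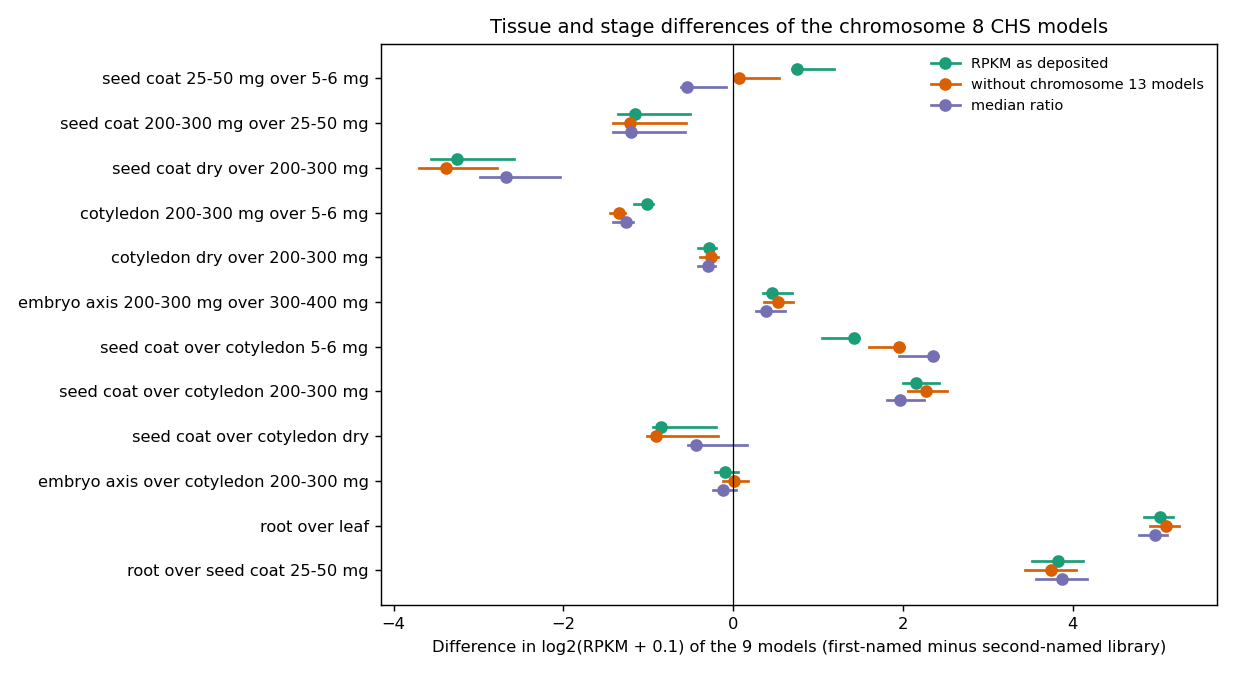
Difference in log2(RPKM + 0.1) for each comparison, first-named minus second-named library, under 3 scalings. Points are the median of the 9 models and lines run from the lowest to the highest model. The root differences (medians 5.03 and 3.83) barely move, whereas the step from 5–6 mg to 25–50 mg seed coats goes from 0.75 as deposited to −0.55 by the median ratio.

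RPKM differences among the 9 models followed model length. Within a library the highest RPKM was 1.98 to 3.76 times the lowest, and the highest number of hits was 1.31 to 2.06 times the lowest. The spread of hits was the smaller one in 11 libraries and the larger one in dry seed coats (2.06 times, against 1.98 times in RPKM). Model lengths ran from 1023 nt for CHS5 Glyma.08G110400.1 to 3355 nt for CHS1 Glyma.08G109400.1, and log2 RPKM fell with log2 length in every library (Pearson r across the 9 models from −0.96 to −0.86, a description over models that share reads). The order of RPKM among copies thus largely followed model length.

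Hits fell into sets of near-equal copies. CHS5 Glyma.08G109200.1 had 31482 hits in roots, CHS4 Glyma.08G110500.1 had 31383 and CHS4 Glyma.08G110700.1 had 31394. In leaves each of these 3 models had 66 hits, and in the W55 seed coat each had 112. The shorter CHS5 model Glyma.08G110400.1 had fewer hits than CHS4 Glyma.08G110500.1 in all 12 libraries, with the interval of the ratio below 1 in 8. The CHS3 models Glyma.08G110300.1 and Glyma.08G110900.1 had 35859 and 35621 hits in roots. Members of a set thus could not be told apart by their hits, and the 9 models carry fewer than 9 separate measurements.

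Between the sets, the balance changed with tissue. Set against CHS4 Glyma.08G110500.1, CHS3 Glyma.08G110900.1 had 1.14 times as many hits in roots (interval 1.12 to 1.15), 0.781 times in seed coats of 5–6 mg seed (0.723 to 0.845), 0.783 times at 25–50 mg (0.653 to 0.939) and 0.763 times in cotyledons of 5–6 mg seed (0.670 to 0.867). For this model roots thus held relatively more hits than the young seed tissues. The longer CHS3 model Glyma.08G109300.1 had ratios of 1.13 in roots (1.11 to 1.15), 0.769 in seed coats of 5–6 mg seed (0.711 to 0.832) and 1.10 at 25–50 mg (0.930 to 1.30), and the last interval overlaps that in roots. Roots, leaves, and seed coats and cotyledons of 5–6 mg seed were all sequenced as 75 nt single reads, so this contrast is seen at 1 read length. In leaves the ratio for Glyma.08G110900.1 was 1.26 with an interval of 0.899 to 1.76, which includes 1. This comparison of copies was made after the hits had been seen, and its intervals leave out that copies share reads.

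CHS1 and CHS9 departed from CHS4 in further libraries. CHS1 Glyma.08G109400.1 had 1.14 times the CHS4 hits in roots (1.12 to 1.16), 0.629 times in seed coats of 5–6 mg seed (0.578 to 0.683) and 1.48 times in dry seed coats (1.02 to 2.16). CHS9 Glyma.08G109500.1 had 0.714 times the CHS4 hits in seed coats of 5–6 mg seed (0.659 to 0.773), 0.747 times at 25–50 mg (0.621 to 0.898) and 1.26 times at 200–300 mg (1.134 to 1.397). CHS9 was therefore below CHS4 in both young seed coats and above it in desiccating ones, with read length differing between these libraries as given above. Glyma.08G109300.1 had 304 hits in seed coats of 25–50 mg seed, where the shorter CHS3 models had 216 and 217, and 35444 hits in roots, where they had 35859 and 35621.

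**Figure D3:**
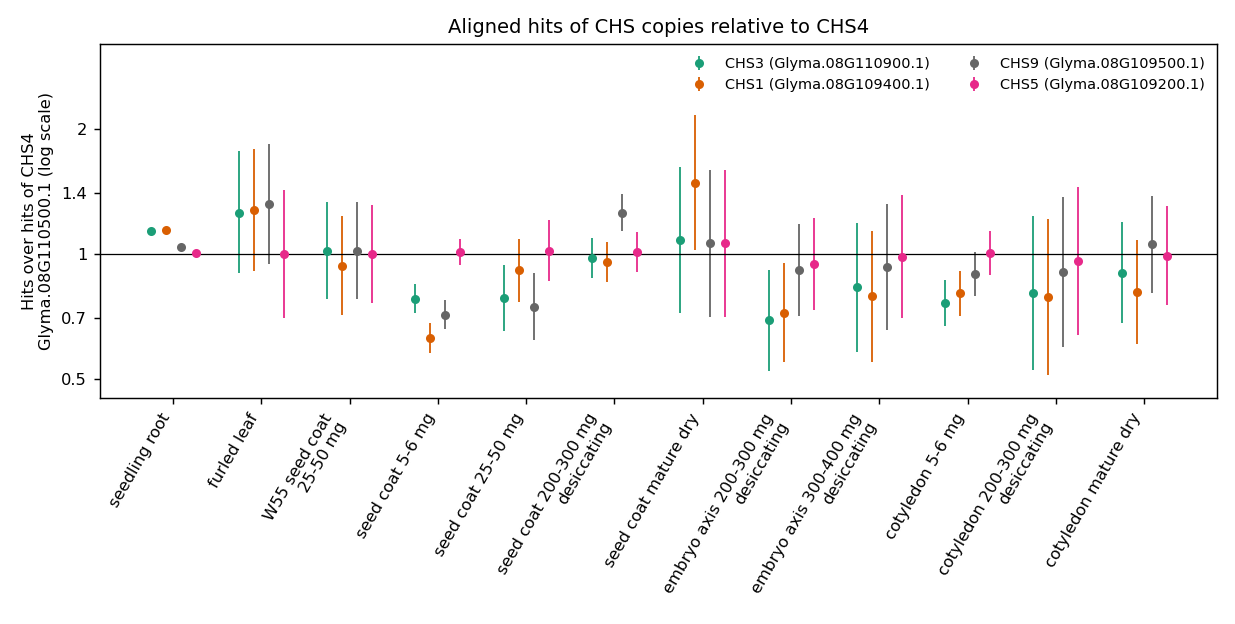
Hits of 4 CHS models divided by hits of CHS4 Glyma.08G110500.1 (log axis) in each library, with exact 95% counting intervals. CHS5 Glyma.08G109200.1 stays near 1 throughout, whereas CHS3 Glyma.08G110900.1 and CHS1 lie above 1 in roots (both 1.14) and below 1 in seed coats and cotyledons of 5–6 mg seed.

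The 9 models had closely parallel levels across libraries. Over the 11 Williams libraries, Pearson r of log2(RPKM + 0.1) between pairs of members ran from 0.989 to 1.00 (36 pairs), and without roots from 0.974 to 1.00. Shared reads enter all of these values. The models of CHS6 and CHS2 had r of 0.939 to 0.976 with the members' median, and 0.837 to 0.957 without roots. CHS7 and CHS8 had r of 0.35 and 0.38 with it, and without roots 0.08 each.

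CHS7 and CHS8 made up most of the CHS RPKM in late embryo tissues. Of the RPKM summed over 15 CHS models, the chromosome 8 members held 87.5% in cotyledons of 5–6 mg seed, 3.48% in cotyledons of 200–300 mg seed and 8.45% in dry cotyledons. CHS7 (Glyma.01G228700.1) had 0.0766 RPKM in cotyledons at 5–6 mg, 106.3 RPKM at 200–300 mg and 31.9 RPKM in dry seed. CHS8 (Glyma.11G011500.1) had 0.0439, 66.6 and 19.8 RPKM at the same stages. Both were thus far higher in desiccating than in young cotyledons, while every chromosome 8 member was lower. The members' share was likewise low in axes, at 9.93% at 200–300 mg and 9.17% at 300–400 mg.

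In the W55 seed coat the members held 4.33% of CHS RPKM, with 74 to 114 hits each, beside 308 RPKM of CHS7 and 223 RPKM of CHS8. The Williams seed coat at the same 25–50 mg stage had 47.1 RPKM of CHS7 and 31.2 RPKM of CHS8, and there the members held 43.8%. Whether the W55 hits of the members came from the hybrid gene or from CHS genes on other chromosomes was not tested. Along the 4 stages of the Williams seed coat the members' share was 46.3%, 43.8%, 63.0% and 54.1%, and with 1 model per CHS name it was 29.8%, 28.4%, 46.1% and 37.1%.

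Roots and leaves were the other tissues in which the cluster held most of the summed CHS RPKM. The members held 71.7% in roots, where CHS7 had 149 RPKM and CHS8 had 116 RPKM, and 79.9% in leaves, where CHS7 had 2.27 RPKM and CHS8 had 2.58 RPKM. A sum over 9 models counts a shared read several times. With 1 model per CHS name the share was 54.7% in roots, 65.6% in leaves, 78.02% in cotyledons of 5–6 mg seed and 28.4% in seed coats of 25–50 mg seed. CHS5 and CHS4, with near-equal hits, both stay in this count, so shared reads still enter it. Per model, the members' median in roots was 104.3 RPKM, below the mean of CHS7 and CHS8 (132 RPKM). In leaves it was 3.15 RPKM against 2.42 RPKM, and in cotyledons of 5–6 mg seed 1.67 RPKM against 0.0603 RPKM.

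**Figure D4:**
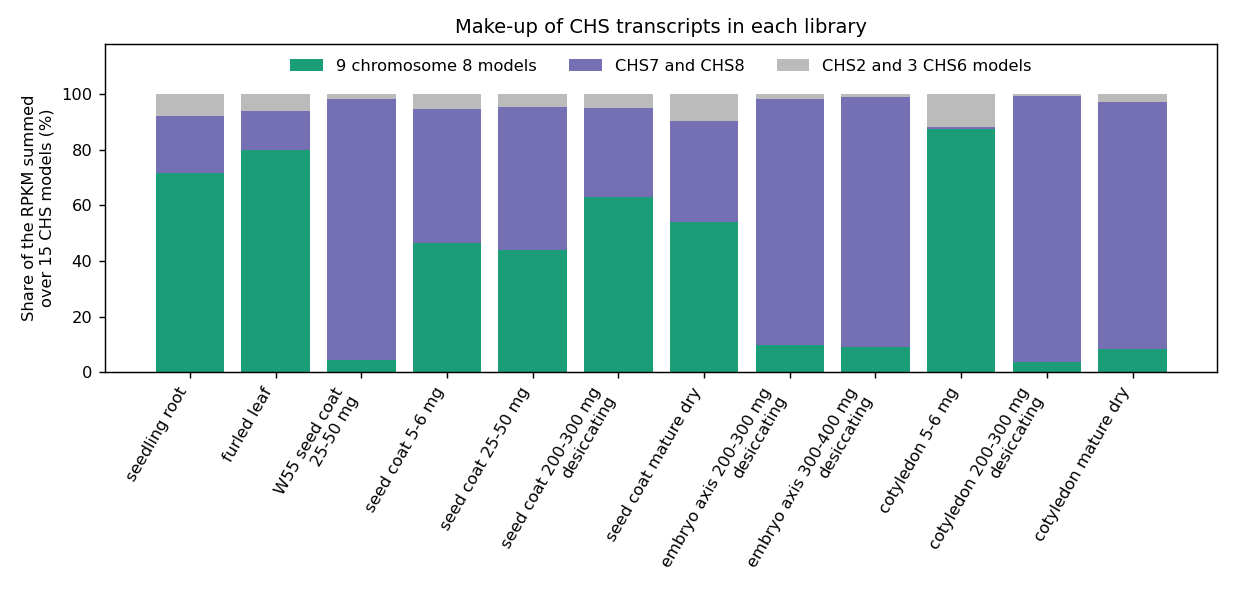
Share of the RPKM summed over 15 CHS models that falls to the 9 chromosome 8 models, to CHS7 and CHS8, and to CHS2 with the 3 CHS6 models, in each library. The chromosome 8 share is 71.7% in roots, 79.9% in leaves and 87.5% in cotyledons of 5–6 mg seed, and under 10% in axes, later cotyledons and the W55 seed coat.

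The enzymes that feed CHS were also high in roots. Of 22 models of phenylalanine ammonia-lyase (PAL), cinnamate 4-hydroxylase (C4H) and 4-coumarate CoA ligase (4CL), assigned by closest Arabidopsis locus, 20 reached 1 RPKM in a Williams library and 14 of these were highest in roots, against 20.8% of all models. In roots 17 of 19 measured entry models were at least 2-fold higher than in leaves, against 27.6% of all models, and 1 was at least 2-fold lower, against 24.1%. Against seed coats of 25–50 mg seed, 9 of 19 measured entry models were at least 2-fold higher in roots, against 25.0% of all models. Another 3 were at least 2-fold lower, against 21.0%. The highest PAL model, Glyma.10G058200.1, had 70.2 RPKM in roots, against 52.4 RPKM in leaves. The highest C4H model, Glyma.02G236500.1, had 57.8 RPKM in roots, against 25.0 RPKM in leaves, and 66.0 RPKM in seed coats of 25–50 mg seed.

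For the enzymes after CHS the count of models highest in roots was near that over all models. Of 54 such models 38 reached 1 RPKM, and 8 of these were highest in roots, against 20.8% of all models, and 12 in seed coats of 25–50 mg seed, against 16.9%. Against leaves, roots had 16 of 31 measured models at least 2-fold higher, against 27.6% of all models, and 10 at least 2-fold lower, against 24.1%. Against seed coats of 25–50 mg seed, roots had 8 of 31 measured models at least 2-fold higher, against 25.0% of all models, and 17 at least 2-fold lower, against 21.0%. Anthocyanidin synthase Glyma.11G027700.1 had 12.9 RPKM in roots and 561 RPKM in these seed coats, and flavanone 3-hydroxylase Glyma.02G048400.1 had 16.6 RPKM in roots and 487 RPKM in seed coats. Models matched to chalcone isomerase went both ways. Glyma.20G241500.1 had 40.9 RPKM in roots and 4.11 RPKM in seed coats, and Glyma.20G241600.1 and Glyma.10G292200.1 were also higher in roots. Glyma.06G143000.1 had 52.5 RPKM in roots and 128 RPKM in seed coats, and Glyma.04G222400.1 and Glyma.20G241700.1 were also higher in seed coats. Glyma.06G143000.1 and Glyma.04G222400.1 matched a different Arabidopsis locus from the other isomerase models named here, which carry the symbol TT5. Whether these 2 models are active isomerases was not tested. The Williams seed coat at 25–50 mg thus had high levels of these anthocyanidin synthase and flavanone 3-hydroxylase models. Beside them stood 3.80 to 9.81 RPKM of each chromosome 8 CHS model, 47.1 RPKM of CHS7 and 31.2 RPKM of CHS8. In roots each chromosome 8 member exceeded these anthocyanidin synthase and flavanone 3-hydroxylase models.

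Isoflavone synthase, the enzyme at the start of the isoflavone branch, had both of its models high in roots and in desiccating embryos. Glyma.07G202300.1 had 72.7 RPKM in roots, against 5.09 RPKM in leaves, and Glyma.13G173500.1 had 50.5 RPKM in roots, against 0.353 RPKM in leaves. In cotyledons the same models had 55.2 and 209 RPKM at 200–300 mg, against 0.553 and 0.838 RPKM at 5–6 mg. In the cotyledon their order of stages was that of CHS7 and CHS8 and not that of the chromosome 8 members.

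**Figure D5:**
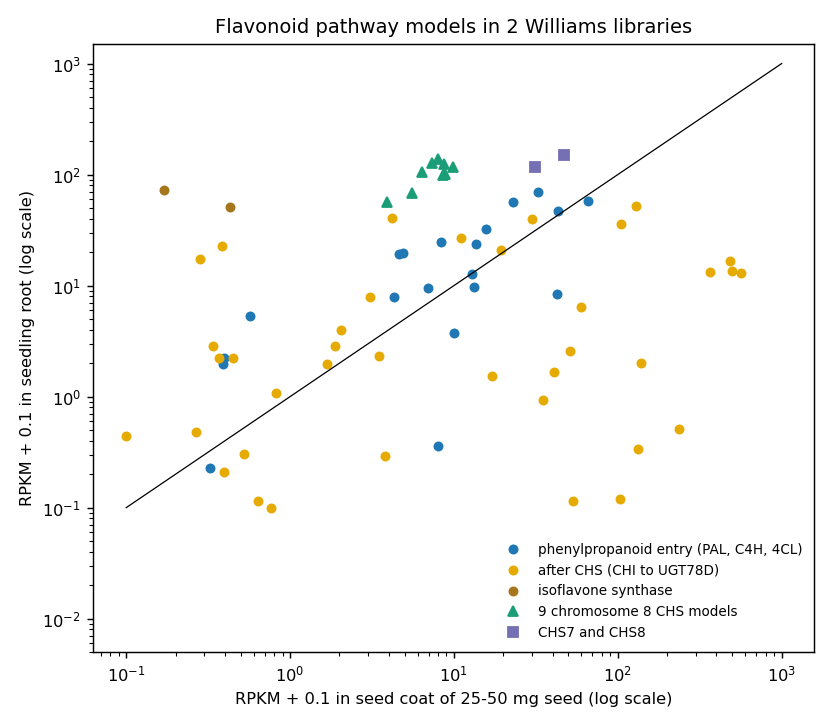
RPKM + 0.1 of flavonoid pathway models in roots (vertical, log axis) and in seed coats of 25–50 mg seed (horizontal, log axis), with a line of equal values. The 9 chromosome 8 CHS models (56.9 to 137 RPKM in roots, 3.80 to 9.81 in seed coats) lie above the line, and 17 of 31 measured models after CHS are at least 2-fold lower in roots.

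Among the regulators, 27 models were matched by closest Arabidopsis locus and 19 reached 1 RPKM, of which 4 were highest in roots, against 20.8% of all models, and 8 in seed coats of 25–50 mg seed, against 16.9%. The 4 highest in roots all matched the bHLH factors GL3 or EGL3. They had low root values, from 1.25 RPKM (Glyma.03G009500.1) to 3.88 RPKM (Glyma.05G208300.1). TT8, a bHLH factor of the proanthocyanidin pathway in Arabidopsis, had its highest model, Glyma.10G026000.1, at 0.112 RPKM in roots, 0.361 RPKM in leaves and 51.2 RPKM in seed coats at 25–50 mg. The highest model of the group of MYB11, MYB12 and MYB111, flavonol regulators in Arabidopsis, was Glyma.16G023000.1, with 74.4 RPKM in dry cotyledons, 60.5 RPKM in cotyledons of 200–300 mg seed and 8.30 RPKM in roots. None of the 6 measured regulators was 2-fold higher or lower in axes of 200–300 mg than of 300–400 mg seed, against 5.42% and 2.22% of all models.

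The models outside the chalcone synthase family whose pattern was most like the members' median were ranked by Pearson r of log2(RPKM + 0.1) over the 11 Williams libraries, among 25926 models with at least 5 RPKM in a library. The 10 most alike had r from 0.966 to 0.981. All 10 were highest in roots, which the ranking favours because the members' median is so high there. The first was Glyma.04G069500.1, a borate transporter BOR4 by closest Arabidopsis locus, with 18.9 RPKM in roots and 1.29 RPKM in seed coats of 25–50 mg seed. Glyma.06G071200.1, the ninth, matched the same Arabidopsis locus and had 12.5 RPKM in roots. The second, Glyma.04G036700.1, had a Myb-like domain and MYB77 as its closest match, with 12.5 RPKM in roots, and the third, Glyma.15G064700.1, matched a quinone reductase and had 94.9 RPKM in roots. The remaining 6 were a lectin-domain kinase (Glyma.03G069300.1), a glutaredoxin (Glyma.19G021300.1), a serine carboxypeptidase (Glyma.13G322600.1), an S-locus lectin kinase (Glyma.13G248800.1), a serine hydrolase (Glyma.02G211600.1) and a model without a Pfam domain (Glyma.01G154800.1). Without roots their r with the members' median was 0.913 to 0.952.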

How the data were processed

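The authors aligned reads with Bowtie 1 to the transcripts of all Glyma models, splice variants included, and allowed mismatches and repeated placement of a read. They deposited RPKM for 56044 models, 1 splice variant each. A read could therefore count for several CHS copies. Read lengths were 70, 75 or 100 nt, without strand. The release within Bowtie 1 is not given in the sources used here.

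Library totals (14.7 M to 187 M alignments) were found as the smallest that make RPKM times listed length whole for 48 models (tolerance 0.001). Differences were taken on log2(RPKM + 0.1), and a model counted as different at 2-fold where 1 RPKM was reached in the pair. With 1 library per condition no test was run. Intervals are exact Clopper-Pearson 95% (ratios) or Poisson (levels). Named models were the 9 members, the other CHS models, the highest of each pathway list by closest Arabidopsis locus, and the 10 most alike. The chalcone isomerase models and those matched to GL3 or EGL3 were named after their values were seen. Members and lists were chosen with earlier results of these data known. Alternatives were other pseudocounts, fold limits, minima, 2 rescalings and 1 model per CHS name. The computation was tested on simulated data. Python 3 with numpy, pandas, scipy and matplotlib was used.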

Additional observations from a re-analysis of the deposited data

How the results depend on the processing

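With 1 library per condition no library could be left out. No paired analysis was possible because each group holds 1 sample. A median of 9 models has no counting interval of its own, so that of the member nearest to it was used, shifted to the median. A pseudocount of 0.01 RPKM moved none of the 11 planned median log2 differences beyond this interval. With a pseudocount of 1 RPKM the medians were −0.90 for seed coats of 200–300 mg over 25–50 mg seed, −1.87 for dry over 200–300 mg seed coats, and for seed coats over cotyledons 1.10 at 5–6 mg, 1.38 at 200–300 mg and −0.30 in dry seed. Rescaled without the chromosome 13 models, they were 0.072 for seed coats of 25–50 mg over 5–6 mg seed, 1.95 for seed coats over cotyledons at 5–6 mg and 0.012 for axes over cotyledons at 200–300 mg, the last with its sign turned. Rescaled by the median ratio over 10091 models, they were −0.55 for seed coats of 25–50 mg over 5–6 mg seed, with its sign turned, −2.67 for dry over 200–300 mg seed coats and 2.35 for seed coats over cotyledons at 5–6 mg. The other medians stayed within these intervals. With 1 model per CHS name all 11 did so, whereas the share of CHS RPKM was lower in all 12 libraries. Member counts use all 9 models without the 1 RPKM minimum, so leaving it out is no check of them. In the step from 5–6 mg to 25–50 mg seed coats, 9 models passed a 1.5-fold limit, 2 a 2-fold limit and 0 a 4-fold limit. Depth limits the values in 200–300 mg cotyledons most (34 to 52 hits per member), then dry seed coats (36 to 74), leaves (57 to 89) and axes (55 to 130). What part the chromosome 13 transcripts, read length or the sequencing instrument have in the differences was not tested.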
